A study of Rattus norvegicus with 16 samples.

Results

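The 36 genes described here encode the machinery of autophagy, its selective form for mitochondria (mitophagy) and the lysosome. They were chosen by name, but earlier results of these data were known by then. Counts of members beside shares of all genes therefore only describe this list. All 36 were measured among 22093 genes. They hold 5 ATG8 proteins, 4 genes of initiation and ATG9 vesicles, 6 genes of the class III PI3-kinase complex and its lipid effectors, 6 genes of ATG8 conjugation, 5 receptors and sensors of cargo and mitophagy, 2 transcription factors, 4 genes of the lysosomal membrane and pump, and 4 lysosomal hydrolases.

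Whole-transcript Affymetrix arrays were used to measure RNA from the apex of the left ventricle. The animals were male rats of the RccHan Wistar stock, given as 7 to 8 weeks of age in all 4 groups. The day 3 and day 14 groups carry the same age, so the age of each at sampling is not known here. Phenformin, a biguanide that inhibits respiratory complex I and was once used against diabetes, was mixed into the diet. The 4 groups were control day 3 (0 ppm for 3 days), phenformin day 3 (3000 ppm for 3 days), control day 14 (0 ppm for 14 days) and phenformin day 14 (3000 ppm for 14 days), with no genetic change in any of them. Each group had 4 arrays, which the labels call biological replicates, while the protocol names 5 animals per group. No label tells which animals shared a cage.

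In macroautophagy a double membrane grows around cytoplasm or an organelle, closes to an autophagosome and fuses with a lysosome, where hydrolases digest the content. Kinases of the ULK family start the process under the control of the energy sensor AMPK and of mTORC1, and ATG8 proteins, conjugated to lipid, extend the membrane and hold the cargo receptors. In heart muscle cells, which are packed with mitochondria and do not divide, this route removes damaged mitochondria and supplies substrate during fasting.

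Many genes of this set are known, mainly from human and mouse cells, as targets of TFEB and TFE3, which bind E-boxes of the letters CACGTG, so promoters of members are shown. RefSeq promoters of build GRCr8 were found for 29 of the 36 members, and none was at hand for Map1lc3a, Atg9a, Becn1, Bnip3l, Fundc1, Atp6v1h and Ctsb. The 250 bases before the transcription start that the RefSeq promoter table uses are printed for Pink1, the member past the threshold at day 3, for Gaa, whose control day 14 arrays lay above those of all other groups, and for Gabarapl1, the member with the largest difference between the control groups. Each is written 5′ to 3′ on the strand of the gene, and capitals mark CACGTG. A gene can have several transcripts: the window of Gaa almost wholly, and those of Lamp1 and Mcoln1 entirely, lie within the span of the annotated gene, so the start they precede is not the gene's outermost one.
Pink1, chr5:155825951-155826200, minus strand: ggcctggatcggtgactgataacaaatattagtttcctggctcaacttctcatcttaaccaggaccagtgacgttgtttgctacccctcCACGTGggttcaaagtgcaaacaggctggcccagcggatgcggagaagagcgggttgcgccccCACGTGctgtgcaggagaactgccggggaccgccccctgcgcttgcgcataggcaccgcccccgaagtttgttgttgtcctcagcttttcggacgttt
Gaa, chr10:105028105-105028354, plus strand: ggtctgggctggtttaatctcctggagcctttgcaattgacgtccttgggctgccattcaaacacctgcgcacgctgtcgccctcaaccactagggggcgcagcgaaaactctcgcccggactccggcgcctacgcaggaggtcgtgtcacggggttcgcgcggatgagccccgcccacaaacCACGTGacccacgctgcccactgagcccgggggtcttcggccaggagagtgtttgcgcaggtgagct
Gabarapl1, chr4:164666082-164666331, plus strand: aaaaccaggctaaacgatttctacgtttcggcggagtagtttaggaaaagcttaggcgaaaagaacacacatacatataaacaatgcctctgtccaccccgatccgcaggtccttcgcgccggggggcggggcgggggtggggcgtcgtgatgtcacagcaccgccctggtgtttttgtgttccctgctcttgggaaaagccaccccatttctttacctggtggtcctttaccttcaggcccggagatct
The Pink1 window holds 2 such E-boxes, that of Gaa 1 and that of Gabarapl1 none. A further 6 members carry CACGTG in the same window, and 1 E-box of each is shown with the bases around it. Atg3, Ctsd and Lamp1 each hold more than 1, and their sites not shown have other flanking bases.
Atg3, chr11:69159281-69159306, minus strand: agattcgagtCACGTGaggcctagga
Atg5, chr20:49380806-49380831, plus strand: gggcgctggcCACGTGggcgggtgac
Bnip3, chr1:203155046-203155071, minus strand: gcacgcgccgCACGTGccacacgcgc
Ctsd, chr1:206968822-206968841, minus strand: gcccgcgtctCACGTGaccc
Lamp1, chr16:83075113-83075138, minus strand: accctcggctCACGTGaccggcgggc
Mcoln1, chr12:6358226-6358251, plus strand: tcaagcttgtCACGTGttcgacccag
In all, CACGTG was found in 8 of the 29 members (27.6%), against 5.59% of 33469 promoters of the same length. Each member counts with 1 promoter, whereas the 33469 are all entries of the promoter table. They were not limited to 1 per gene, to measured genes or to protein-coding genes, as all members are. This unlike background stands behind every share of promoters given here, and enrichment was not tested. The palindrome reads alike on both strands. With the T before it that TFEB family sites often carry, TCACGTG on either strand was found in 5 members (17.2%), Atg3, Ctsd, Gaa, Lamp1 and Mcoln1, against 2.79% of all promoters. This longer motif contains the shorter one. The full CLEAR element, a longer palindrome around both, was in none of the 29 and in 0.203% of all promoters. TGTTTAC, the core bound by FoxO factors, was in none of the 29, against 3.21% of all promoters on either strand, and AGGTCA, a hexamer bound by nuclear receptors, was in that of Ulk2 alone (3.45%), against 14.1%. These are matches of letters, and binding was not measured.

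The deposited values were RMA intensities on a linear scale, and every value below is the log2 of such an intensity or a difference of these in log2 units. Array medians lay between 4.94 and 5.13. The number of arrays limits the precision. Because a level also depends on the probes of its probe set, single genes were not compared with each other by level. The labelled tissue was checked with 9 heart muscle markers, whose mean level was between 16.47 and 16.59 in all 16 arrays. Differences were tested with limma over all 22093 genes, and the threshold was a Benjamini-Hochberg adjusted p of 0.05. The tests measure the spread between arrays. The tissue was measured whole, so that fewer cells of a type and less RNA per cell cannot be told apart.

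Between the 2 control groups no member passed the threshold, but many lay higher at day 14. Age at sampling and date of sampling may also differ between these groups. They cannot be told apart from the days of feeding. At an unadjusted p of 0.05 in limma, 13 of the 36 members were higher in control day 14 than in control day 3 and 0 were lower, against 5.07% of all genes higher and 4.39% lower. For 10 members (27.8%) the 4 arrays of control day 14 all lay above the 4 of control day 3, which held for 2.52% of all genes, and for 0 members they all lay below, against 2.13%. The median difference was 0.11 over the members and 0.01 over all genes, and 9 of the 36 differences were below 0, against 45.7% of all genes. A difference of more than 1.5-fold was found for 2 members, Gabarapl1 and Map1lc3a, and for 1.12% of all genes. No gene of the 22093 had an adjusted p under the threshold in this comparison, while 9.46% had an unadjusted p under 0.05.

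At day 3 of phenformin 1 member, Pink1, rose, and at day 14 none passed the threshold. For day 3 the share of all genes past the adjusted threshold was 0.566%, with 0.104% higher and 0.462% lower, and for day 14 it was 0.0724%, with 0.0226% higher. At an unadjusted p of 0.05, 7 members were higher and 1 was lower at day 3, where the shares of all genes were 3.59% and 5.78%. At day 14, 1 was higher and 9 were lower, where they were 3.87% and 6.96%. For 3 members, Pink1, Gabarapl1 and Atg14, all phenformin day 3 arrays lay above all controls (2.34% of all genes), and for 0 they lay below (3.87%). For 4 members, Gabarap, Gaa, Map1lc3a and Bnip3, all phenformin day 14 arrays lay below all controls (3.09% of all genes), and for 0 they lay above (2.04%). No member differed by more than 1.5-fold at either day, against 1.53% of all genes at day 3 and 1.57% at day 14. Over both days together 1.21% of all genes passed the adjusted threshold (0.883% lower) and no member did, and at the unadjusted one 5 members were higher and 4 lower, against 4.74% and 8.28%. The median difference over the members was 0.03 at day 3 and -0.04 at day 14, beside 0.00 and -0.03 over all genes. Below 0 lay 11 members at day 3, 23 at day 14 and 19 over both, against 49.9%, 57.8% and 56% of all genes. The day 3 comparison shares the control day 3 arrays with the comparison of the control groups, and the day 14 comparison shares the control day 14 arrays, so that these values are not independent of each other. Control day 3 replicate 2 had the highest value of the second principal component, followed by control day 14 replicate 1 and, close to the latter, control day 3 replicate 3. Without the first 2 of these, the 13 members higher between controls became 9 and the 9 lower at day 14 became 4. With array medians aligned the same counts were 9 and 4, and the 7 higher at day 3 became 3. Pink1 kept its call at day 3 without those 2 arrays and lost it with medians aligned (adjusted p = 0.262). These 7 became 4 when control day 3 replicate 1 or 3 or phenformin day 3 replicate 1 or 4 was left out.

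**Figure D1:**
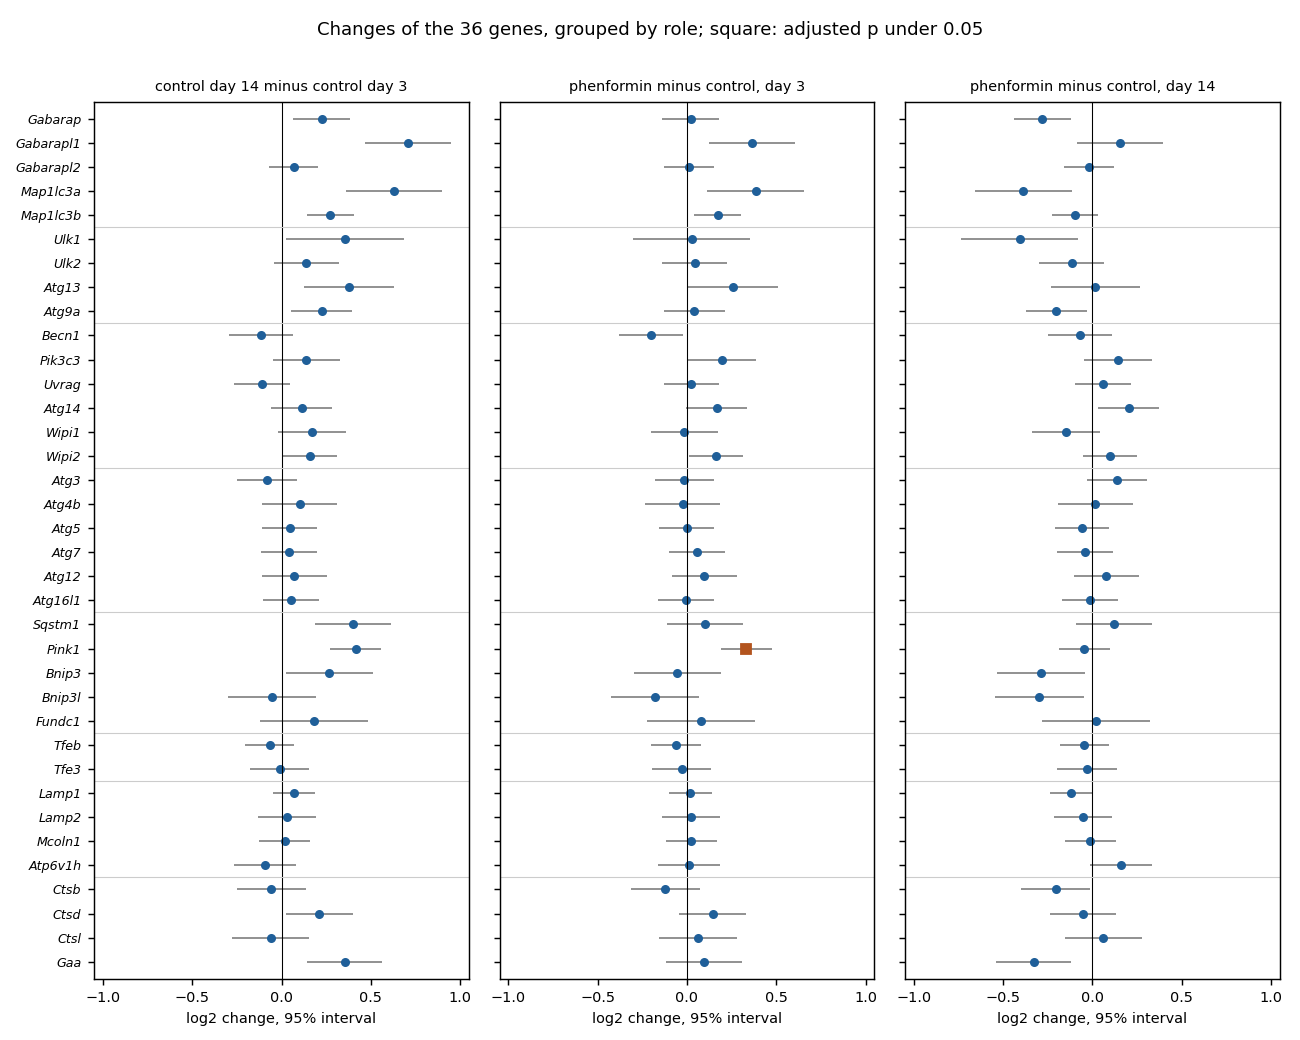
Log2 differences of the 36 members, ordered by role, for control day 14 against control day 3 and for phenformin against control at day 3 and at day 14; points are limma estimates, lines their 95% intervals and squares values past the threshold. Gabarapl1, Map1lc3a, Pink1 and Sqstm1 lie at 0.40 or more between the control groups, and Map1lc3a lies at 0.39 at day 3 and at -0.39 at day 14.

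Control day 3 had the lowest of the 4 group means for 17 of the 36 members, as it did for 25.9% of all genes, and control day 14 had the highest for 16 members, as it did for 28.8%. Phenformin day 14 had the lowest mean for 10 members (32.4% of all genes) and the highest for 11 (23.4%). Phenformin day 3 was lowest for 5 (22.6%) and highest for 4 (21.8%). Within a group the members had a median SD of 0.108 against 0.152 over all genes. The 2 sets differ in level, with a median of 9.65 for the members and 6.02 for all genes. The lowest member lay at percentile 51.2 of all genes and 14 members lay above percentile 90. The shares of all genes printed beside the counts of members were not matched for level.

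**Figure D2:**
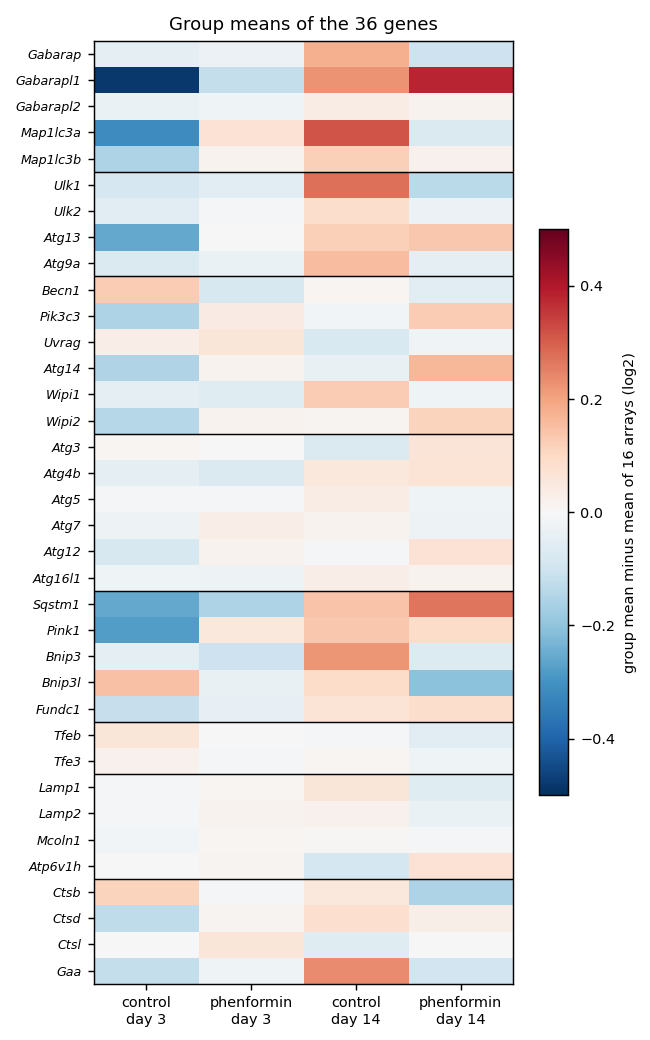
Mean log2 level of each of the 36 members in the 4 groups, shown as the difference from the mean of that member over all 16 arrays, in log2 units. The control day 3 column holds the lowest value for 17 members and the control day 14 column the highest for 16.

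Some marker lists of other cells and of tissue handling moved with the same groups, and others moved less or otherwise. Endothelial markers had medians of 0.08 at day 3, -0.15 at day 14 and -0.16 between controls. In the same order, smooth muscle and pericyte markers had 0.06, 0.05 and -0.15, and lymphocyte markers 0.00, -0.06 and 0.02. Neutrophil markers had 0.06, -0.14 and 0.02, and adipocyte markers -0.0001, -0.06 and -0.0002. No marker of these lists passed the threshold. The mean level of 12 immediate early genes, which rise within minutes of stress or handling, was between 6.67 and 8.54 in control day 3, between 6.08 and 6.55 in phenformin day 3, between 6.53 and 7.50 in control day 14 and between 6.17 and 6.82 in phenformin day 14. All 12 were below 0 at day 3, with a median of -1.20, and 2 of them, Nr4a1 and Atf3, fell past the threshold, beside 0.462% of all genes. Between controls all 12 were below 0, with a median of -0.54. For these and the following lists, the shares of all genes below 0 were 49.9% at day 3, 57.8% at day 14 and 45.7% between controls. Fibroblast markers had a mean level of 11.45 to 11.84 in control day 3 and of 10.71 to 11.41, 10.90 to 11.37 and 10.63 to 11.32 in phenformin day 3, control day 14 and phenformin day 14, so that control day 3 lay above all others. Of these 10 markers, 10 were below 0 at day 3 and 8 between controls, none past the threshold. Macrophage markers were below 0 for 10 of 10 at day 3. Red cell markers were below 0 for 8 of 8 at both days, and platelet markers for 7 of 7 at day 14. Over both days 2 red cell markers and 3 immediate early genes fell past the threshold, beside 0.883% of all genes. The smallest limma adjusted p was 0.0101 and 0.00467 in these lists. Between controls all 7 platelet markers were above 0, with a median of 0.38, as most members were, and 2 had an unadjusted p under 0.05. Their mean level was 5.59 to 6.21 in control day 3, 5.47 to 6.01 in phenformin day 3, 5.84 to 6.72 in control day 14 and 5.15 to 5.78 in phenformin day 14. Heart muscle markers had medians between -0.01 and 0.01. Their median absolute difference at day 3 was 0.01, beside 0.09 over all genes. These markers lie high on the deposited scale, and whether differences are compressed there was not tested. Single heart muscle markers lay between -0.001 and 0.22 at day 3, between -0.33 and 0.09 at day 14 and between -0.02 and 0.27 between controls. At an unadjusted p of 0.05 in limma, 1 of 9 was higher at day 3, 1 lower at day 14 and 2 higher between controls. The shares of all genes were 3.59%, 6.96% and 5.07%, and no heart muscle marker passed the adjusted threshold. The part of these differences in the values of the autophagy genes was not tested.

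**Figure D3:**
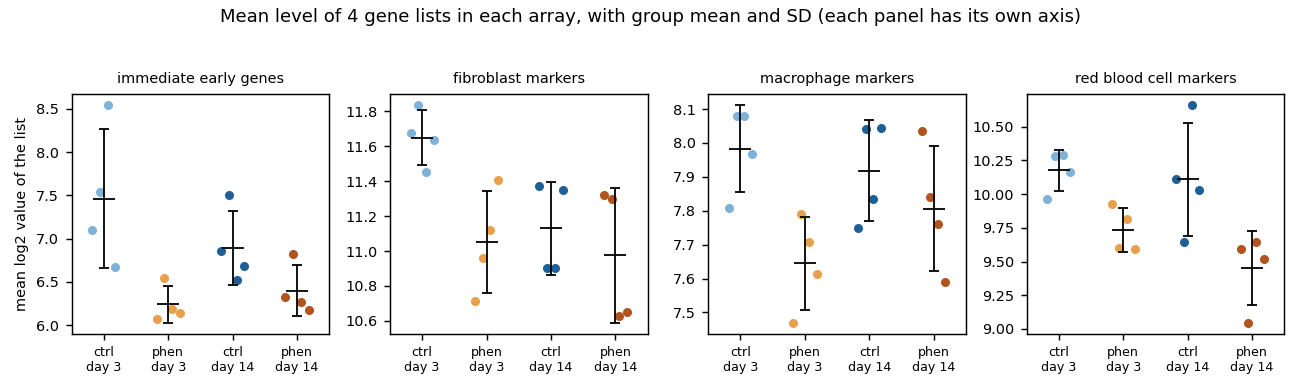
Mean log2 level of immediate early genes and of fibroblast, macrophage and red blood cell markers in each array (points), with the group mean (dash) and SD (bars). Fibroblast markers lie between 11.45 and 11.84 in control day 3 and at or below 11.41 in the other groups, and immediate early genes reach 8.54 in control day 3.

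The ATG8 proteins are ubiquitin-like proteins that are attached to the autophagosome membrane and bind cargo receptors. All 5 were higher in control day 14 than in control day 3, 4 of them at an unadjusted p of 0.05, beside 5.07% of all genes higher at that p and 45.7% below 0, and none passed the adjusted threshold in any comparison. Gabarapl1, a GABARAP family member abundant in heart and brain, had log2 values of 10.94, 10.67, 10.91 and 10.94 in control day 3 and of 11.54, 11.61, 11.80 and 11.34 in control day 14. The phenformin arrays read 11.15, 11.37, 11.18 and 11.22 at day 3 and 11.48, 11.97, 11.88 and 11.58 at day 14. The control groups did not overlap, the phenformin day 3 arrays lay above all control day 3 arrays and, but for 1 array, below all control day 14 arrays, and the day 14 groups overlapped. Between the controls the difference was 0.71 (SE 0.114, 1.63-fold, limma adjusted p = 0.0659). Phenformin against control gave 0.36 at day 3 (SE 0.114, adjusted p = 0.219) and 0.16 at day 14 (adjusted p = 0.658), and over both days 0.26 (adjusted p = 0.139), the smallest p among the members there. The adjusted p between the controls was 0.0418 without control day 14 replicate 1 and 0.0497 without phenformin day 14 replicate 2.

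Map1lc3a, an LC3 protein, of the family used to count autophagosomes, had values of 9.17, 9.25, 8.68 and 8.72 in control day 3 and of 9.28, 9.46, 9.18 and 9.44 in phenformin day 3. At day 14 they were 9.63, 9.65, 9.46 and 9.60 in controls and 8.92, 9.22, 9.31 and 9.35 with phenformin. The control day 14 arrays lay above all arrays of control day 3 and of phenformin day 14, whereas the day 3 groups overlapped. Its estimate was 0.63 between the controls (SE 0.128, 1.55-fold, adjusted p = 0.0924), 0.39 for phenformin at day 3 (adjusted p = 0.257) and -0.39 at day 14 (adjusted p = 0.27). The test of the difference between these effects gave -0.77 (SE 0.181, limma adjusted p = 0.365), so the contrast in sign did not pass.

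Map1lc3b, the LC3 protein most used as a marker in tissue, spanned a smaller range. Control day 3 arrays held 7.58, 7.56, 7.57 and 7.73 and control day 14 arrays 7.82, 7.92, 7.95 and 7.85, without overlap. In phenformin day 3 the values were 7.80, 7.79, 7.71 and 7.82 and in phenformin day 14 7.75, 7.86, 7.76 and 7.77, and both sets overlapped their controls, at day 3 through the single highest control array. The differences were 0.27 between controls (SE 0.0618, adjusted p = 0.138), 0.17 at day 3 (adjusted p = 0.32) and -0.10 at day 14 (adjusted p = 0.6).

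Gabarap, the founding member of the GABARAP branch, had the smallest p of all members at day 14. Its control arrays read 10.71, 10.56, 10.51 and 10.58 at day 14 and 10.45, 10.32, 10.23 and 10.46 at day 3. With phenformin they read 10.35, 10.27, 10.27 and 10.35 at day 14 and 10.29, 10.32, 10.35 and 10.57 at day 3. The control day 14 arrays lay above all arrays of control day 3 and of phenformin day 14, and the day 3 groups overlapped. Phenformin against control was -0.28 at day 14 (SE 0.0754, 1.21-fold lower, adjusted p = 0.167) and 0.02 at day 3 (adjusted p = 0.972), and control day 14 exceeded control day 3 by 0.23 (adjusted p = 0.317). Gabarapl2 (GATE-16), the remaining ATG8 protein, had differences of 0.01, -0.02 and 0.07 in day 3, day 14 and control time. It was the only member with another probe set, a dimmer one, whose values there were 0.11, 0.18 and 0.11, none past the threshold.

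**Figure D4:**
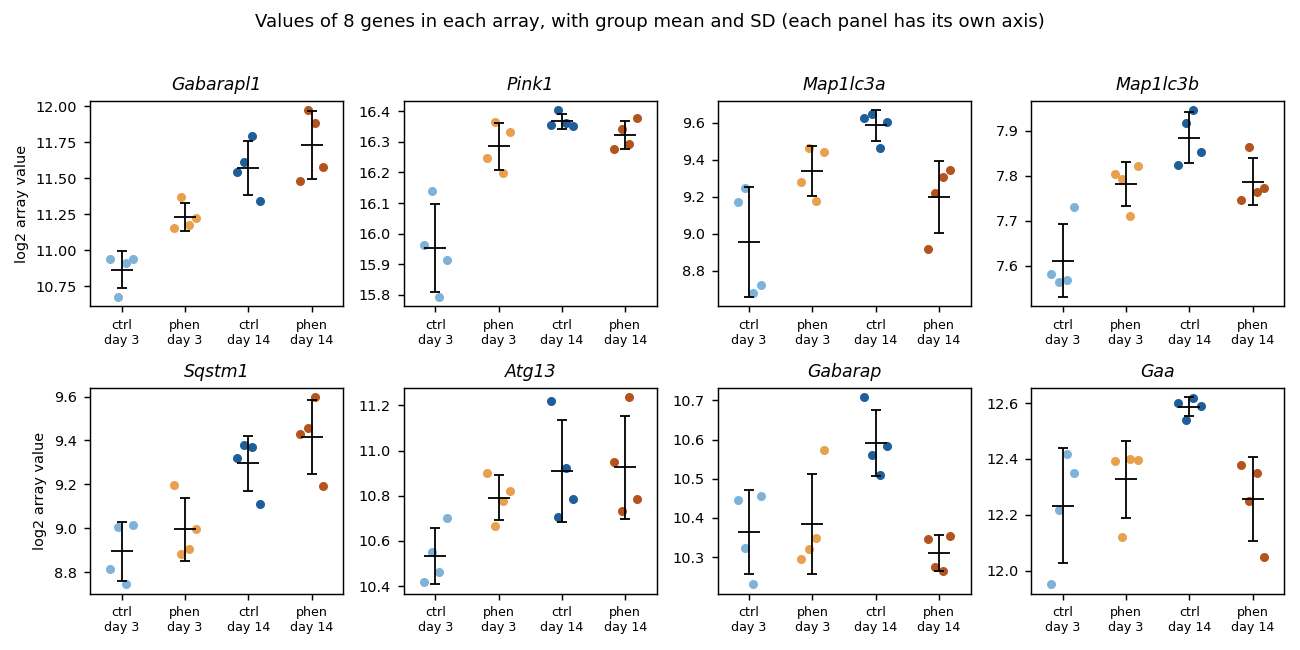
Log2 level in every array (points) with the group mean (dash) and SD (bars) for 8 members, in control day 3, phenformin day 3, control day 14 and phenformin day 14. The lowest points of Gabarapl1, Pink1 and Map1lc3a are in control day 3, at 10.67, 15.79 and 8.68.

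Among the initiation genes, Ulk1, the kinase that starts autophagosome formation, had values spread widely within groups. Control day 3 held 10.03, 10.25, 10.42 and 10.73 and control day 14 10.93, 10.40, 10.62 and 10.90. Phenformin day 3 held 10.55, 10.16, 10.59 and 10.23 and phenformin day 14 10.18, 10.24, 10.20 and 10.59. The groups overlapped in every comparison. The estimate was -0.41 at day 14 (SE 0.155, adjusted p = 0.343), 0.03 at day 3 and 0.36 between controls (adjusted p = 0.477). Atg13, the ULK1 partner, and Atg9a, the lipid scramblase of the vesicles that seed the membrane, were higher in control day 14 than in control day 3 without overlap, by 0.38 and 0.23 (adjusted p = 0.286 and 0.362). The Atg13 control groups stood apart only narrowly, with their nearest arrays at 10.70 in control day 3 and 10.71 in control day 14. With phenformin Atg13 gave 0.26 at day 3 and 0.02 at day 14, and Atg9a gave 0.04 and -0.20. Ulk2, a related kinase, lay between -0.12 and 0.14.

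The class III PI3-kinase complex makes the lipid PI3P on the growing membrane, and WIPI proteins read it. Of its 6 members none passed the adjusted threshold, and over both days 3 were higher and 1 was lower at an unadjusted p of 0.05, beside 4.74% and 8.28% of all genes. Atg14, the subunit that directs the complex to autophagy, had values of 7.00, 7.06, 6.97 and 6.83 in control day 3 and 7.19, 7.08, 7.06 and 7.20 in phenformin day 3, and of 7.17, 7.03, 7.19 and 6.93 in control day 14 and 7.15, 7.39, 7.20 and 7.38 in phenformin day 14. The day 3 groups did not overlap, although their nearest arrays both read 7.06 at 2 decimals, and the day 14 groups overlapped. Over both days the estimate was 0.18 (SE 0.0573, adjusted p = 0.141), made of 0.17 and 0.20. Pik3c3, the lipid kinase itself (VPS34), read 7.51, 7.65, 7.33 and 7.45 in control day 3, 7.80, 7.55, 7.52 and 7.84 in phenformin day 3, 7.72, 7.66, 7.59 and 7.51 in control day 14 and 7.66, 7.85, 7.77 and 7.78 in phenformin day 14. Both days overlapped, with 0.20 at day 3, 0.14 at day 14 and 0.17 over both (adjusted p = 0.235).

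Becn1, the regulatory subunit beclin 1, gave the opposite sign. Its arrays read 8.06, 8.01, 8.21 and 7.89 in control day 3 and 7.82, 7.96, 7.77 and 7.80 in phenformin day 3, 7.91, 7.83, 8.07 and 7.89 in control day 14, and 7.67, 7.94, 7.93 and 7.88 in phenformin day 14. The groups overlapped at both days, and the estimates were -0.20 at day 3 (SE 0.0846, adjusted p = 0.429) and -0.07 at day 14. Becn1 was the 1 member lower at an unadjusted p of 0.05 at day 3. Wipi2, which brings the conjugation machinery to PI3P, was higher in control day 14 than in control day 3 by 0.16 without overlap and gave 0.16 and 0.10 for phenformin. Wipi1, its relative, gave 0.17, -0.01 and -0.15 in the same order, and Uvrag, the subunit of the endosomal form of the complex, -0.11, 0.03 and 0.06.

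The 6 genes of ATG8 conjugation lay between -0.08 and 0.14 at day 3, at day 14 and between controls, and none reached an unadjusted p of 0.05. They are the E1-like Atg7, the E2-like Atg3, the ubiquitin-like Atg12 with its partner Atg5, Atg16l1, which anchors that pair on the membrane, and the protease Atg4b. The extremes were Atg3, at 0.14 for phenformin at day 14 and -0.08 between controls.

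Pink1, the mitochondrial kinase that marks depolarised mitochondria for mitophagy, was the member that passed the threshold. Its mean level of 16.23 lay at percentile 99.4 of all genes. The 99th percentile of all probe sets ran from 16.93 to 17.79 over the arrays, and its part in the Pink1 values was not tested. Control day 3 arrays held 15.96, 16.14, 15.79 and 15.91, and phenformin day 3 arrays 16.25, 16.37, 16.20 and 16.33. At day 14 the controls read 16.36, 16.41, 16.36 and 16.35 and the phenformin arrays 16.28, 16.34, 16.29 and 16.38. Every phenformin day 3 array lay above every control day 3 array and both day 14 groups overlapped phenformin day 3, so that control day 3 was the group that stood apart. Pink1 rose at day 3 by 0.33 (0.19 to 0.48 as the 95% interval, SE 0.0675, 1.26-fold, limma adjusted p = 0.0322). At day 14 the estimate was -0.05 (adjusted p = 0.85), the difference between the days was -0.38 (SE 0.0955, adjusted p = 0.365), and control day 14 exceeded control day 3 by 0.42 (SE 0.0675, adjusted p = 0.0659). The call at day 3 was lost, with adjusted p between 0.0541 and 0.113, when any of control day 3 replicates 1, 3 and 4 or any 1 of the 4 phenformin day 3 arrays was left out. Between the controls Pink1 had an adjusted p of 0.0277 without control day 3 replicate 2 and of 0.0418 without control day 14 replicate 1. The call at day 3 was also lost when the arrays were normalised by quantiles again (adjusted p = 0.613) or brought to the same median (adjusted p = 0.262), without the mean-variance trend (0.0663), with the 8 arrays of day 3 alone (0.131) and over all probe sets (0.31).

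Sqstm1, the cargo receptor p62, did not differ with phenformin past the threshold and lay higher in the later controls. Its values were 8.81, 9.01, 8.75 and 9.01 in control day 3 and 9.32, 9.38, 9.37 and 9.11 in control day 14, without overlap. Phenformin arrays held 9.20, 8.88, 8.91 and 9.0 at day 3 and 9.43, 9.45, 9.60 and 9.19 at day 14, overlapping the controls of the same day. Between controls the difference was 0.40 (SE 0.1, adjusted p = 0.174), and for phenformin it was 0.10 and 0.12.

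Bnip3 and Bnip3l (NIX) are mitophagy receptors of the outer mitochondrial membrane that hypoxia induces. Bnip3 read 13.97, 13.94, 14.35 and 13.92 in control day 3, 13.93, 14.19, 14.03 and 13.81 in phenformin day 3, 14.30, 14.20, 14.52 and 14.23 in control day 14 and 13.76, 14.04, 14.16 and 14.14 in phenformin day 14. Only the day 14 groups stood apart, with all phenformin arrays below all controls, at -0.29 (SE 0.115, adjusted p = 0.374). Bnip3l read 10.77, 10.85, 10.76 and 10.80 in control day 3, 10.86, 10.47, 10.55 and 10.58 in phenformin day 3, 10.78, 10.61, 11.10 and 10.48 in control day 14 and 10.54, 10.28, 10.59 and 10.38 in phenformin day 14. Its groups overlapped at both days, with -0.18 at day 3, -0.30 at day 14 (adjusted p = 0.363) and -0.24 over both (SE 0.0826, adjusted p = 0.194). Fundc1, another receptor of that membrane, gave 0.08, 0.02 and, between controls, 0.18.

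Tfeb, the factor that drives lysosomal genes, passed the threshold in no comparison. Its arrays held 6.19, 6.21, 6.05 and 6.22 in control day 3 and 6.12, 6.04, 6.11 and 6.15 in phenformin day 3, 6.18, 6.16, 6.01 and 6.06 in control day 14, and 6.05, 6.05, 6.01 and 6.10 in phenformin day 14, and all groups overlapped. The estimates were -0.06 (95% interval -0.20 to 0.08) at day 3, -0.05 (-0.18 to 0.09) at day 14 and -0.07 between controls. Tfe3, its relative, gave -0.03, -0.03 and -0.01. TFEB is controlled largely by phosphorylation and entry into the nucleus, which RNA levels do not measure. Of the members with a promoter, the 8 with CACGTG had a median difference of 0.14 between controls and those without it 0.11. For phenformin the medians were 0.02 and 0.04 at day 3 and -0.06 and -0.01 at day 14.

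On the lysosomal membrane, Lamp1, a main glycoprotein of that membrane, read 13.95, 13.96, 13.94 and 13.84 in control day 3, 13.90, 13.96, 13.94 and 13.97 in phenformin day 3, 14.02, 14.00, 14.05 and 13.90 in control day 14 and 13.89, 13.94, 13.80 and 13.87 in phenformin day 14. The groups overlapped in every comparison. The differences were 0.02 at day 3, -0.12 at day 14 (adjusted p = 0.458) and 0.07 between controls. Lamp2, which autophagosome fusion in heart requires and whose loss causes Danon disease, gave 0.02, -0.06 and 0.03 in the same order. Mcoln1, the lysosomal calcium channel, lay between -0.01 and 0.02, and Atp6v1h, a subunit of the proton pump, between -0.09 and 0.16.

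Gaa, the acid alpha-glucosidase that digests glycogen and is lost in Pompe disease, differed most among the hydrolases. Control day 14 arrays held 12.60, 12.54, 12.62 and 12.59, and control day 3 arrays 11.95, 12.22, 12.42 and 12.35. With phenformin the arrays held 12.38, 12.25, 12.35 and 12.05 at day 14 and 12.39, 12.12, 12.40 and 12.40 at day 3. The control day 14 arrays were close together and lay above all arrays of the other groups. Phenformin against control was -0.33 at day 14 (SE 0.0998, 1.26-fold lower, adjusted p = 0.22) and 0.09 at day 3. Control day 14 exceeded control day 3 by 0.35 (adjusted p = 0.231), and the difference between days was -0.42 (adjusted p = 0.554).

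The cathepsins are lysosomal proteases. Ctsd read 13.54, 13.58, 13.40 and 13.64 in control day 3, 13.58, 13.67, 13.70 and 13.77 in phenformin day 3, 13.88, 13.46, 13.87 and 13.80 in control day 14 and 13.68, 13.74, 13.75 and 13.61 in phenformin day 14. Its groups overlapped throughout, with 0.14, -0.05 and, between controls, 0.21 (adjusted p = 0.442). Ctsb gave -0.12, -0.21 and -0.06, and Ctsl gave 0.06, 0.06 and -0.06.

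The difference between the day 3 and day 14 effects was below 0 for 28 of the 36 members, with a median of -0.07, while it was below 0 for 55.2% of all genes, with a median of -0.02. No gene passed the limma threshold there. At an unadjusted p of 0.05, 6 members had a lower effect at day 14 (Map1lc3a, Pink1, Map1lc3b, Gaa, Gabarap and Atg9a) and 0 a higher one, against 3.88% and 3.12% of all genes. All 6 were also among the members that lay higher in control day 14 than in control day 3, and the 2 comparisons share all 8 control arrays.

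Other genes of the pathway were read from 5 further lists. Of 23 other genes of the autophagy machinery, 2 fell over both days and none rose, against 0.883% and 0.326% of all genes. Snap29, a SNARE protein of the fusion of autophagosomes with lysosomes, was at 9.35 ± 0.146 (SD, n = 4) in control day 3, 9.21 ± 0.129 in phenformin day 3, 9.57 ± 0.118 in control day 14 and 9.08 ± 0.0876 in phenformin day 14. It fell by 0.31 over both days (SE 0.0626, adjusted p = 0.0234), with -0.49 at day 14 (adjusted p = 0.0522, and 0.0481 without phenformin day 3 replicate 2). Atg4a, a protease that processes ATG8 proteins, fell by 0.23 (SE 0.0498, adjusted p = 0.0311), with -0.23 at each day. The Snap29 call was lost without control day 3 replicate 3 (adjusted p = 0.0503), and that of Atg4a without any 1 of 9 arrays (adjusted p up to 0.0738), namely control day 3 replicates 2 and 3, control day 14 replicates 3 and 4, phenformin day 3 replicates 1, 3 and 4 and phenformin day 14 replicates 1 and 2. With array medians aligned the adjusted p was 0.0643 for Snap29 and 0.129 for Atg4a.

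Of 17 other genes of selective autophagy and mitophagy, 1 rose at day 3 and over both days, against 0.104% and 0.326% of all genes. Mul1, a ubiquitin ligase of the outer mitochondrial membrane, was at 9.09 ± 0.112 in control day 3, 9.43 ± 0.0545 in phenformin day 3, 9.29 ± 0.0498 in control day 14 and 9.49 ± 0.117 in phenformin day 14. It rose by 0.34 at day 3 (SE 0.0727, adjusted p = 0.0477) and by 0.27 over both days (SE 0.0514, adjusted p = 0.0186). The day 3 call was lost without any 1 of 14 arrays (adjusted p up to 0.148), all but phenformin day 14 replicates 1 and 4, whereas the call over both days was kept without each of the 16. With array medians aligned both were lost (adjusted p = 0.3 and 0.106). In this list 8 genes were higher and 0 lower between controls at an unadjusted p of 0.05, beside 5.07% and 4.39% of all genes, and the median was 0.17 against 0.01 over all genes.

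Of 35 other lysosomal enzymes and membrane proteins, 1 rose over both days, against 0.326% of all genes. Lipa, the lysosomal acid lipase, was at 7.76 ± 0.0968 and 7.89 ± 0.0522 at day 3 in control and phenformin, and at 7.66 ± 0.0832 and 8.27 ± 0.34 at day 14. It rose by 0.37 over both days (SE 0.0863, adjusted p = 0.0495), with 0.60 at day 14 (adjusted p = 0.0679, and 0.00249 without phenformin day 14 replicate 1), and the call was lost without any 1 of 15 arrays (adjusted p up to 0.0948), all but phenformin day 14 replicate 1. None of 15 other pump subunits and none of 30 genes of upstream control passed in any comparison.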

How the data were processed

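Whole-transcript arrays of 16 rat hearts were labelled from 300 ng of RNA, extracted from 30 mg of tissue, per the labels' protocols. The authors deposited linear intensities made with RMA, per the submitters' processing notes, without a version. The step from RMA to a linear scale is not stated there, so folds refer to the deposited scale. From these deposited intensities the log2 was taken, without further normalisation, filter or pseudocount. Of 68842 probe sets, 23446 had 1 gene symbol in the platform annotation, 505 several and 44891 none; the probe set of highest mean over 16 arrays stood for each of 22093 genes. A model with 1 mean per group over the 16 arrays was fitted with limma 3.58.1 in R 4.3.3 (two-sided moderated tests with a mean-variance trend), with Benjamini-Hochberg adjustment over all genes within a comparison. Phenformin was set against control at day 3, at day 14 and averaged over both, the effects of the 2 days were set against each other, and control day 14 was set against control day 3. The script was tested on simulated data. No batch or scan date was given in the labels or files used here.

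Values per array are given for members past the threshold, for the 5 members of smallest p in each comparison and for Sqstm1, Map1lc3b, Bnip3, Tfeb, Ulk1, Lamp1 and Ctsd. From each other pathway list the genes past the threshold and the 2 of smallest p in each comparison are named. The members, lists, tests and rules were chosen with earlier results of these data known. Promoters came from RefSeq GRCr8, and motifs were searched on both strands in the 250 bases before the start. Alternatives to each choice are given in the closing section.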

Additional observations from a re-analysis of the deposited data

Results flagged for a closer look

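In 11 of 144 sets of 4 arrays, 1 set for each member and group, 1 array lay far from the other 3 by Dixon's ratio, above its 95% critical value. Chance gives about 1 in 20, here 7.2. Control day 3 replicate 2 was the lowest for Gabarapl1, at 10.67 against 10.91 for the next, and the highest for Wipi1, at 11.60. Control day 3 replicate 1 was lowest for Atg9a, at 8.59, and highest for Atg12, at 7.51. Control day 3 replicate 4 was highest for Map1lc3b, at 7.73 against 7.58, and control day 3 replicate 3 for Bnip3, at 14.35. Control day 14 replicate 1 was highest for Atg16l1, at 9.64. Phenformin day 3 replicate 2 was lowest for Gaa, at 12.12 against 12.39. Phenformin day 14 replicate 1 was lowest for Atg3, at 10.36, and phenformin day 14 replicate 4 was highest for Ulk1, at 10.59 against 10.24, and lowest for Ctsl, at 11.48. Of these sets, 6 were in control day 3.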

How the results depend on the processing

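The alternatives dropped genes under the 25th percentile of mean level, normalised by quantiles again, aligned array medians, used no mean-variance trend, gave arrays weights, used the 8 arrays of a comparison alone, set replicate numbers as blocks, took the mean of a gene's probe sets, tested every probe set, or omitted 1 array at a time. One more was chosen after seeing the data: leaving out control day 3 replicate 2 and control day 14 replicate 1, the 2 arrays with the highest second principal component, although control day 3 replicate 3 lay close behind. Over all members, comparisons and alternatives, 4590 of 4608 tests stayed on their side of the threshold, 12 lost and 6 gained a call, and no called value changed sign. The count of 1 member called at day 3 became 0 with quantiles, with aligned medians, without the trend, with the 8 arrays and with all probe sets, and was 0 to 1 without single arrays. Pink1 then had adjusted p of 0.613, 0.262, 0.0663, 0.131 and 0.31. Between controls the count of 0 became 2 with the dim genes dropped (Gabarapl1 and Pink1, both at adjusted p = 0.0488) and was 0 to 2 without single arrays. At day 14, over both days and in the difference between days no alternative called a member.

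Counts at the unadjusted p of 0.05 were 9 to 13 between controls without single arrays, and 9 with aligned medians and with the 2 arrays left out. The 9 lower members at day 14 became 4 under each of those settings. The 7 higher members at day 3 became 3 with aligned medians and 4 with all probe sets, and were 4 to 8 without single arrays. Over both days the 5 became 3, and in the difference between days the 6 became 3, with aligned medians.

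Among all genes, the 125 calls at day 3 became 74 with aligned medians, 16 with all probe sets and 66 with the 2 arrays left out, and 22 to 149 without single arrays. The 16 at day 14 became 33 with dim genes dropped, 3 with aligned medians, 3 without the trend, 8 with weights, 1 with the 8 arrays, 5 with the block, 8 with averaged probe sets, 2 with all probe sets and 4 with the 2 arrays left out, and 3 to 29 without single arrays. The 267 over both days became 87 with aligned medians, 53 with all probe sets and 136 with the 2 arrays left out, and 131 to 353 without single arrays. Between controls 0 became 14 with dim genes dropped and up to 24 without single arrays. The causes were not tested. The other genes named as called all lost their calls with aligned medians (adjusted p = 0.3 for Mul1 at day 3, and over both days 0.106 for Mul1, 0.0643 for Snap29, 0.129 for Atg4a and 0.115 for Lipa) and with all probe sets (0.226, 0.0811, 0.0994, 0.145 and 0.169 in the same order). Mul1 at day 3, Atg4a and Lipa lost them with the 2 arrays left out (0.0705, 0.0845 and 0.136), Atg4a and Lipa with quantiles (0.0756 and 0.0818), Mul1 at day 3 and Lipa without the trend (0.0686 and 0.0692) and with the replicate block (0.0893 and 0.0628), and Mul1 at day 3 with the 8 arrays (0.1). Snap29 gained a call at day 14 with dim genes dropped (0.0416). Replicate numbers do not pair animals in the labels. Deviations from group means of arrays with the same number had a median correlation of 0.0365 over 24 pairs, 3 of them above 0.1. For arrays of different number the median was -0.0127 over 72 pairs, 12 of them above 0.1. Of the 16 arrays, 5 correlated best with their own number. With the replicate block Pink1 at day 3 had an adjusted p of 0.0314, and no call among the members changed.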

Other observations

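Outside the members, the genes of smallest p in the other pathway lists, none of them past the limma threshold in these comparisons, were the following. Among genes of upstream control, Ddit4 (REDD1), an inhibitor of mTORC1, was at -1.03 at day 3 (adjusted p = 0.23) and -0.71 over both days. Its levels were 8.94 ± 0.576 (SD, n = 4) in control day 3, 7.91 ± 0.357 in phenformin day 3, 8.33 ± 0.62 in control day 14 and 7.94 ± 0.535 in phenformin day 14. Lamtor1, which anchors mTORC1 signalling on lysosomes, was at 0.40 between controls (adjusted p = 0.0794) and at -0.18 with phenformin at day 14. The transcription factor Foxo4 was at 0.35 between controls (adjusted p = 0.17). Rraga, a GTPase that brings mTORC1 to lysosomes, was at -0.22 at day 3, Fnip1, a partner of folliculin, at 0.30 at day 14, and Rheb, the GTPase that activates mTORC1, at -0.13 over both days.

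In selective autophagy, Ccpg1, a receptor for endoplasmic reticulum, and Bag3, a co-chaperone of muscle, were at 0.38 and 0.39 between controls (adjusted p = 0.197 and 0.297). Mfn2, a mitofusin, was at 0.18 at day 3, Bcl2l13 at -0.16 at day 14, and the differences between days were -0.22 for Phb2 and -0.15 for Tollip. In the machinery, Wdr45, a PI3P effector, was at 0.23 at day 3 and 0.23 between controls, and Tmem41b at -0.27 in the difference between days. Among lysosomal genes, Ctsk, a cathepsin also made by fibroblasts, was at -0.55 at day 3 (adjusted p = 0.155), where fibroblast markers were lower as well, and the part of those cells was not tested. Cd63 was at 0.34 at day 3, Igf2r, the receptor that sorts hydrolases, at 0.30 at day 14 (adjusted p = 0.162), and the proteases Lgmn and Ctsf at 0.24 and 0.22 between controls. Of the pump subunits, Atp6v0a1 was at 0.18 and Atp6v1e1 at -0.15 at day 3, Atp6ap1 at -0.27 at day 14, and Atp6v0c and Atp6v0d1 at 0.18 and 0.19 between controls.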
